A study of Danio rerio with 12 samples.

Results

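Skeletal muscle genes were followed across zebrafish embryos and embryonic hearts that lack tet2 and tet3. The set is a list of 38 gene symbols for the contractile, calcium handling, energy and regulatory proteins of body muscle, and all 38 were found among the 25680 genes of the deposited tables. Where a symbol stood on more than 1 row, the row with the highest total count was used, which applied to myhz1.1. RNA was sequenced as 12 libraries in 5 groups. Double mutants (DM) carried inactivating mutations in tet2 and tet3, which encode TET dioxygenases that oxidise methylated cytosine in DNA. The labels do not name the alleles. Sibling samples were a mixture of animals with wild type sequence and animals heterozygous for tet2, tet3 or both, so they are not a single genotype. There were 3 DM and 3 sibling libraries of whole embryos at 25 hours after fertilisation (hpf). At 48 hpf, hearts taken out by hand gave 2 libraries each of DM, sibling and wild type (WT) animals, numbered 1 and 3 in each group. No treatment was given, and the labels name AB as the strain background of every group, while the growth protocol says that wild type embryos came from crossing AB with TU fish. The labels say neither how many animals a library pools nor whether replicate libraries stem from different clutches, and the p-values therefore cover only the spread among these libraries, which may be technical.

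Body muscle in zebrafish forms from the somites, where the transcription factors Myf5 and Myod1 start the muscle programme and Myog drives differentiation into fibres. Each fibre is packed with sarcomeres, in which myosin thick filaments pull on actin thin filaments anchored at the Z disc. Contraction begins when calcium leaves the sarcoplasmic reticulum through the ryanodine receptor and binds troponin C, and it ends when the SERCA pump returns the calcium. Most of these proteins exist as fast, slow and cardiac versions encoded by separate genes, so the fast and slow versions can mark body muscle in a sample of heart. Not every member of the list does so here, as given below.

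Embryo libraries held 8341467 to 16700992 counted reads and heart libraries 3289161 to 5963478. Levels are given as counts scaled to the library total (CPM), which carry no correction for gene length, so they compare libraries and not genes. At these depths the limit for a count of 0, set at 3 counts, is 0.180 to 0.360 CPM in embryos and 0.503 to 0.912 CPM in hearts, and covers counting error only. Between 36 and 38 of the 38 genes had at least 1 count in each library. The targeted genes were still transcribed in mutants, with overlapping levels in embryos: tet2 lay at 87.5 to 152 CPM in DM embryos and 77.7 to 120.0 CPM in sibling embryos, and tet3 at 35.0 to 92.1 CPM in DM embryos and 48.4 to 94.96 CPM in sibling embryos. In hearts tet2 lay at 138.8 to 167.0 CPM in DM, 167.2 to 250.5 CPM in sibling and 140.7 to 351 CPM in WT libraries, so DM lay narrowly below siblings. For tet3 these ranges were 110 to 118.7, 68.5 to 119.2 and 95.5 to 96.3 CPM. RNA level therefore does not check the genotype labels here. Neighbouring paralogs (the fast myosins myhz1.1, myhz1.2 and myhz2, the tnni2a copies) and the overlapping genes smyhc1 and smyhc2 may share reads, and their separate values are uncertain. Their sequences were not compared.

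At 25 hpf body muscle transcripts were abundant in both genotypes, and their total did not separate DM from sibling embryos. The 38 genes together took 15696, 10146 and 12392 CPM in DM embryos 1, 2 and 3, against 15002, 12243 and 10821 CPM in sibling embryos 1, 2 and 3. The library numbered 1 was the highest in each genotype, and the groups overlapped. Without regard to library numbers edgeR called 0 genes and DESeq2 39, none of them a muscle gene. When libraries of equal number were compared with each other, 7 of the 36 genes tested fell in DM embryos and none rose, while 9.39% of all genes tested fell and 4.37% rose. The genes that fell encode muscle actins, nebulin and an alpha-actinin (actc1b, acta1a, neb, actn3b), the calcium pump and release channel (atp2a1, ryr1b) and a creatine kinase (ckma). The troponin and tropomyosin genes of the same thin filament had positive values in 8 of the 8 tested, against 51.8% of all genes, and none was called. Between the libraries numbered 2, all of these but tnnt1 were lower in DM. In whole embryos, a change in the number of muscle fibres and a change in RNA per fibre cannot be told apart, and neither was tested.

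Without regard to library number, edgeR's quasi-likelihood test called 0 of 17831 genes at an adjusted p of 0.05 (0%), and 0 of the 36 muscle genes, of which the smallest adjusted p was 0.722. At an unadjusted p under 0.05 stood 585 genes and 0 muscle genes. DESeq2 called 39 genes (0.206%) and 0 muscle genes. The median log2 fold change of DM over sibling embryos was 0.18 across the muscle genes, with 24 of 36 positive, and 0.02 across all genes tested. The number of positive muscle genes was 33 of 36 without sibling embryo 1 and 18 of 36 without DM embryo 1. Only tmod4, which caps the pointed ends of thin filaments, had levels that did not overlap between the genotypes, at 82.2, 83.8 and 81.8 CPM in DM embryos and 71.9, 76.9 and 61.6 CPM in sibling embryos, whereas 5.99% of all genes did not overlap. This 1 gene of 36 stands below that background.

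The spread within each genotype followed the library numbers for some of the genes only. In 17 of the 36 genes both libraries numbered 1 were the 2 highest of the 6, a pattern found in 22.3% of all genes tested. It held for the actins actc1b and acta1a, both alpha-actinins, neb, atp2a1, ryr1b, both creatine kinases, myl1, desma, myhz1.1, myhz2, both slow myosins, myod1 and myog. In 13 other genes DM embryo 3 and sibling embryo 2 were the 2 highest, against 8.2% of all genes, and these were tpma and tpm2, the fast regulatory light chains mylpfa and mylpfb, tnnt3a, tnni2a.4, tnni2b.1, tnnc2, the parvalbumins pvalb2, pvalb3 and pvalb4, casq1b and myf6. The median genomic span was 11.2 kb for the 17 genes and 8.24 kb for the 13 genes. The 7 muscle genes called lower when library number is used, given below, all belong to the 17.

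**Figure D1:**
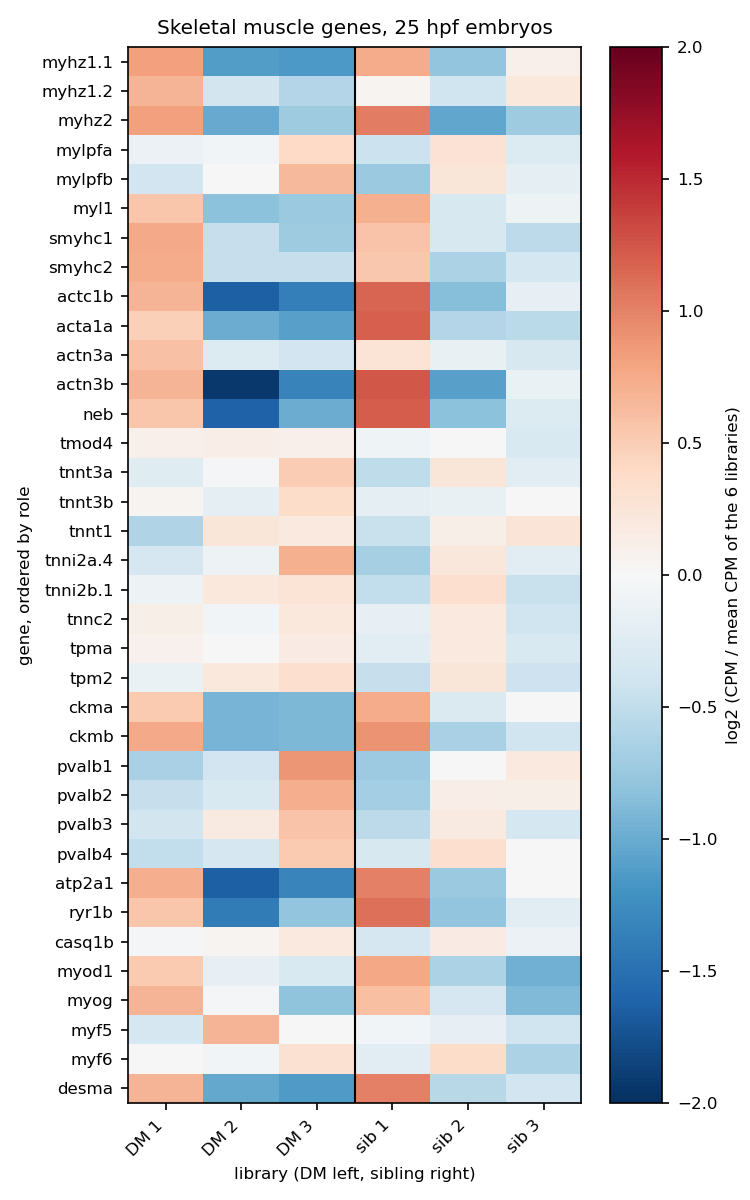
Heat map of the 36 muscle genes tested in 25 hpf embryos, with DM libraries on the left and sibling libraries on the right; colour is the log2 of each library's CPM over the mean of the 6 libraries. Rows are ordered by role, with 17 genes reddest in DM 1 and sibling 1, among them actc1b, neb and atp2a1, and 13 genes reddest in DM 3 and sibling 2, among them mylpfa, tpm2 and pvalb2.

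The library number was entered as a block, since the deviations of same-numbered libraries from their group means correlated across genes, at r = 0.867, 0.706 and 0.243 for numbers 1, 2 and 3. The labels state no pairing, and the unlike numbers DM embryo 3 and sibling embryo 2 correlated at 0.558, above the pair numbered 3, so the 7 calls below rest on a pairing that is weak for number 3. In that fit 2453 of 17831 genes were called (13.8%), 1674 lower in DM embryos (9.39%) and 779 higher (4.37%). Among the 36 muscle genes 7 were lower and 0 higher. An unadjusted p under 0.05 was found in 14 of the 36, and in 5910 of all 17831 genes. The median over the muscle genes was 0.19 on the log2 scale with 24 of 36 positive, so the genes that fell were a minority of the list. The calls that follow are edgeR log2 fold changes of DM over sibling with Benjamini-Hochberg adjusted p-values over all genes tested.

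The actin and Z disc genes (actins, alpha-actinins, neb and tmod4) held most of the lower calls, with 4 of 6 lower and a median log2 fold change of -0.57. The largest fall was in actn3b (ENSDARG00000001431, chromosome 7, 6814866 to 6898486), an alpha-actinin that cross-links thin filaments at the Z disc. It stood at 75.2, 12.3 and 18.5 CPM in DM embryos 1 to 3, against 111, 22.0 and 42.8 CPM in sibling embryos 1 to 3. The genotypes overlapped, but DM was lower in each of the 3 pairs, with a log2 fold change of -0.78 (SE 0.16, adjusted p = 0.0031). Its paralog actn3a was not called, at 334, 184 and 171 CPM in DM embryos and 271, 202 and 179.7 CPM in sibling embryos (log2 fold change 0.10, SE 0.16, adjusted p = 0.66).

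The muscle actin actc1b (ENSDARG00000099197, chromosome 17, 117124 to 124703) had 851, 172 and 205 CPM in DM embryos and 1192, 293 and 474 CPM in sibling embryos. DM was lower in all 3 pairs, and the log2 fold change was -0.75 (SE 0.16, adjusted p = 0.00507). The skeletal alpha-actin acta1a (ENSDARG00000036371, chromosome 1, 53286191 to 53293789) had 134, 48.3 and 45.3 CPM in DM embryos and 220.1, 64.0 and 66.2 CPM in sibling embryos. It fell by 0.49 on the log2 scale (SE 0.16, adjusted p = 0.039), again lower in each pair. Nebulin, neb (ENSDARG00000032630, chromosome 9, 22994268 to 23081969), is the giant protein that runs along the thin filament. It had 183, 40.5 and 62.6 CPM in DM embryos and 288, 70.4 and 103 CPM in sibling embryos (log2 fold change -0.65, SE 0.15, adjusted p = 0.00819). In this group tmod4 had a log2 fold change of 0.31 and was not called (SE 0.15, adjusted p = 0.158).

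Of the 9 genes of calcium handling and energy supply, 3 were called, all lower, while the median of the 9 was -0.03. The SERCA pump gene atp2a1 (ENSDARG00000020574, chromosome 3, 25950472 to 26026195) had 1119, 218 and 272 CPM in DM embryos and 1364, 402 and 677 CPM in sibling embryos. DM was lower in each pair, with log2 ratios of -0.29, -0.88 and -1.32 in pairs 1 to 3, and the fitted log2 fold change was -0.75 (SE 0.17, adjusted p = 0.00684). The ryanodine receptor gene ryr1b (ENSDARG00000023797, chromosome 18, 35516112 to 35755583) had 58.9, 15.2 and 23.2 CPM in DM embryos and 85.4, 23.1 and 34.0 CPM in sibling embryos (log2 fold change -0.49, SE 0.15, adjusted p = 0.0321). Its pair ratios were close to each other, at -0.54, -0.60 and -0.55. Creatine kinase ckma (ENSDARG00000035327, chromosome 5, 36231926 to 36237693), which buffers ATP in muscle, had 361, 131 and 135 CPM in DM embryos and 422, 206 and 253 CPM in sibling embryos (log2 fold change -0.52, SE 0.16, adjusted p = 0.0322). The paralog ckmb had a log2 fold change of -0.24 and was not called (SE 0.16, adjusted p = 0.288).

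The calcium buffers of fast muscle, the parvalbumins, did not pass the test. The gene pvalb1 had 129, 154 and 371 CPM in DM embryos and 121, 200.1 and 229 CPM in sibling embryos, and pvalb2 had 253, 282 and 574 CPM in DM embryos and 216, 381 and 377 CPM in sibling embryos. In both genes pair 2 was lower in DM and pairs 1 and 3 were higher. The 4 parvalbumin genes had log2 fold changes of -0.03 for pvalb4 to 0.41 for pvalb3, and the calcium store protein gene casq1b had 0.24.

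No myosin gene was called in this fit. The fast heavy chain myhz1.1 had 1473, 386 and 376 CPM in DM embryos and 1394, 481 and 893 CPM in sibling embryos, with pair ratios that ran from 0.08 to -1.25 on the log2 scale (log2 fold change -0.42, SE 0.19, adjusted p = 0.12). The fast heavy chains myhz1.2 and myhz2 had 0.03 and 0.01. The regulatory light chain mylpfa had 2031, 2138 and 2902 CPM in DM embryos and 1647, 2712 and 1837 CPM in sibling embryos, which is higher in DM in pairs 1 and 3 and lower in pair 2 (log2 fold change 0.28, SE 0.19, adjusted p = 0.303). Its paralog mylpfb had 0.39 and the essential light chain myl1 had -0.35, neither of them called. Slow muscle showed no called difference either. The slow heavy chain smyhc1 had 2019.7, 875 and 729.9 CPM in DM embryos and 1784, 957 and 839 CPM in sibling embryos (log2 fold change 0.02, SE 0.16, adjusted p = 0.938), and smyhc2 had a log2 fold change of 0.17.

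The troponin and tropomyosin genes, which carry the calcium switch of the thin filament, had positive log2 fold changes in 8 of the 8 tested, with a median of 0.30, and none was called. Beta-tropomyosin, tpm2, came closest, at 358, 453 and 495 CPM in DM embryos and 286, 464 and 295 CPM in sibling embryos (log2 fold change 0.42, SE 0.17, adjusted p = 0.0992). Pair 2 had nearly equal tpm2 levels, and pairs 1 and 3 were higher in DM. The other 7 ran from 0.04 for the slow troponin T gene tnnt1 to 0.39 for tnni2b.1. The troponin I copy tnni2a.1 had 3 counts or fewer in every embryo library and was not tested. The 4 myogenic factors, which are the DNA-binding regulators of the programme, also had positive values and no call, with myod1 at 33.1, 20.7 and 18.6 CPM in DM embryos and 39.5, 14.9 and 11.8 CPM in sibling embryos (log2 fold change 0.31, SE 0.18, adjusted p = 0.224). The log2 fold changes were 0.37 for myf5, 0.28 for myf6 and 0.22 for myog. The intermediate filament gene desma, which encodes desmin, had -0.44 and missed the threshold (SE 0.15, adjusted p = 0.0575), and its paralog desmb had 4 counts or fewer in each embryo library and was not tested.

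**Figure D2:**
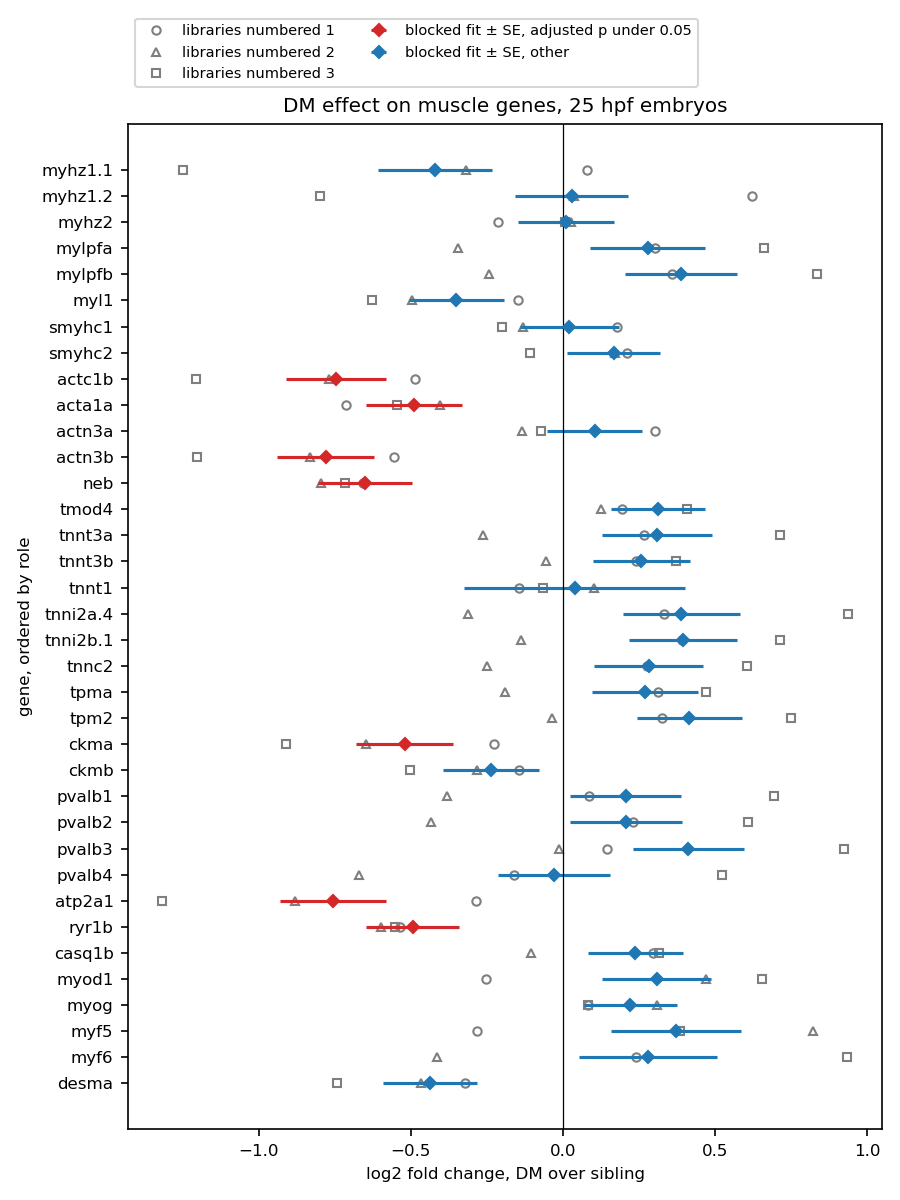
Log2 ratio of DM over sibling CPM within each numbered pair of 25 hpf embryo libraries (open gray circles, triangles and squares for numbers 1, 2 and 3) and the blocked edgeR log2 fold change with its SE (diamonds with bars, red for the 7 called genes and blue for the others) for the 36 muscle genes tested, grouped by role. The 7 called genes lie left of 0 in all 3 pairs, while for the troponin and tropomyosin genes other than tnnt1 pair 2 lies left of 0 and pairs 1 and 3 lie right of it.

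Of the 7 lower calls, 6 were lost when a pair was left out. With pair 1 or pair 2 left out, actn3b was the only muscle gene called (adjusted p = 0.0338 and 0.032). Among all genes 536 of 17474 and 1227 of 17975 were called in these fits. With pair 3 left out 11 of 36 muscle genes were called, 10 lower and 1 higher. That fit called 3119 of 18279 genes, 1965 lower and 1154 higher. Removing a smooth trend of each library with gene span, together with the block, left 2324 genes called (13%), 1434 lower (8.04%) and 890 higher (4.99%), and 8 muscle genes lower and 1 higher. Under it ryr1b lost its call (log2 fold change -0.22, adjusted p = 0.297), while myl1 (-0.45) and ckmb (-0.42) were called lower and tpm2 (0.60) higher. Of the 8 troponin and tropomyosin genes tested, 7 were then positive. In the authors' deposited table for embryos, 47 genes passed an adjusted p of 0.05 and 0 of the 35 muscle genes with an adjusted p did.

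Marker lists of other cell types were counted in the same blocked fit, in which 9.39% of all genes tested were lower and 4.37% higher. All 9 lens markers tested were lower in DM embryos in the blocked fit, at 11.7 to 18.5 CPM summed in DM embryos and 86.6 to 249.6 CPM in sibling embryos. The cartilage and notochord markers, 1 of 3 called lower, summed to 262 to 799 CPM in DM embryos and 349 to 1072 CPM in sibling embryos, and the cardiomyocyte markers, 4 of 10 called higher and 1 lower, to 472 to 504 CPM in DM embryos and 444 to 502 CPM in sibling embryos. Of the neural markers 2 of 8 were called lower and 1 higher (769 to 1195 CPM in DM embryos, 858 to 1128 CPM in sibling embryos), of the skin markers 1 of 8 higher (28339 to 35722 CPM in DM, 26079.8 to 28281 CPM in siblings) and of the red blood cell markers 2 of 6 lower (1135 to 2179 CPM in DM, 988 to 1577 CPM in siblings). The lens sums and, narrowly, the skin sums did not overlap between the genotypes, and the sums of the other lists did. Counts of 1 or 2 genes in lists this short are not read as a shift of a cell type. The part of other cell types in the muscle values was not tested.

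The other genes of the muscle programme were counted list by list. Of 24 other sarcomere genes tested in embryos, 8 were lower in the blocked fit and 0 higher, with a median log2 fold change of -0.21, where 9.39% of all genes tested were lower and 4.37% higher. They include both titin genes, which encode the spring between the Z disc and the thick filament, and ttn.2 had 508, 111 and 172 CPM in DM embryos and 741, 208 and 301 CPM in sibling embryos (log2 fold change -0.68, SE 0.16, adjusted p = 0.00699). The fast heavy chain myhz1.3 was also lower, at 953, 184 and 189.7 CPM in DM embryos and 1236, 251 and 349 CPM in sibling embryos (log2 fold change -0.50, SE 0.16, adjusted p = 0.0408). The troponin T gene tnnt2c, which had the most reads of this list, had 0.25 and was not called. Of 14 excitation-contraction genes 3 were lower and 0 higher, with a median of -0.28: ryr1a (-0.50), ryr3 (-0.50) and the junctophilin jph1b (-0.67), which holds the sarcoplasmic reticulum to the surface membrane. The genes of that list with the most reads, cav3, srl and casq1a, had 0.41, -0.11 and 0.11 and were not called.

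In the lists for the making and upkeep of fibres the counts lay near or below the 13.8% called among all genes, and nothing is read from them about these lists. Of 13 neuromuscular junction and fusion genes 1 was lower, the cell adhesion gene kirrel3l (-0.65, SE 0.16, adjusted p = 0.0123), and the fusion gene jam3b (0.36), the acetylcholine receptor subunit chrna1 (0.24) and the fusion gene tmem8c (0.00) were not called. None of 11 sarcomere chaperone and kelch genes was called, including the myosin chaperones unc45b (0.17) and hsp90aa1.1 (0.09) and the kelch gene klhl31 (-0.45, SE 0.15, adjusted p = 0.0515). The list's capn3a was too low for the edgeR test, at 0.482, 0.240 and 0 CPM in DM embryos and 1.44, 0.666 and 5.74 CPM in sibling embryos, and DESeq2 did not call it (log2 fold change -3.28, adjusted p = 0.115). With the span trend removed klhl31 was called lower (-0.53, adjusted p = 0.014), and jam3b and, of the muscle energy list, ldha were called higher. Of 11 muscle energy genes 1 was called, the phosphoglycerate mutase pgam2, which was higher in DM, at 40.2, 35.3 and 44.7 CPM in DM embryos and 29.9, 30.1 and 26.5 CPM in sibling embryos (log2 fold change 0.54, SE 0.16, adjusted p = 0.0251). The enolase eno3 (0.10) and the aldolases aldoaa (-0.09) and aldoab (-0.11) were not called.

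Of 23 muscle progenitor and regulator genes tested, 5 were lower and 1 higher, with a median of -0.24, against 9.39% lower and 4.37% higher among all genes. The gene pax7a, which encodes a transcription factor of muscle progenitors that neural crest and brain also use, had 21.9, 5.99 and 9.22 CPM in DM embryos and 43.1, 20.1 and 32.9 CPM in sibling embryos. DM was lower in each pair, with a log2 fold change of -1.39 (SE 0.17, adjusted p = 7.98e-06), and its paralog pax7b had -0.66. Also lower were pax3a (-0.47), sox6 (-0.54), which is a repressor of the slow programme in fast fibres, and mef2ca (-0.63), a transcription factor of sarcomere genes. The somite gene mespaa was higher, at 2.49, 2.76 and 0.965 CPM in DM embryos and 1.02, 0.962 and 0.338 CPM in sibling embryos (log2 fold change 1.44, SE 0.35, adjusted p = 0.00937). The regulators mef2d (-0.40) and eya1 (-0.43) were not called. In the blocked fit with the span trend removed, 8.04% of all genes tested were lower. There 6 of the 24 other sarcomere genes, 1 of the 14 excitation-contraction genes and 3 of the 23 regulator genes were lower. The count for the excitation-contraction list lies near that share, and nothing is read from it. In that fit ttn.2 (-0.39, adjusted p = 0.0662) and mef2ca (-0.39, adjusted p = 0.0674) lost their calls, as did kirrel3l (-0.43, adjusted p = 0.0502) and pgam2 (0.35, adjusted p = 0.0822). The regulators pax3a and sox6 and the channel genes ryr1a and ryr3 also lost theirs. The regulators called lower there were pax7a, pax7b and six4a, of which six4a was not called in the blocked fit alone.

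In hearts at 48 hpf the sum of the 38 genes stood out in a single library, DM heart 1, and not in the other DM heart. The 38 genes together took 15900.5 and 2458 CPM in DM hearts 1 and 3, 2329 and 1708 CPM in sibling hearts 1 and 3, and 3068 and 2778 CPM in WT hearts 1 and 3. DM heart 1 stood at 6.47-fold the median of the other 5 hearts, while DM heart 3 lay between the sibling and WT hearts. Without tpma, desma and desmb, which heart muscle is also known to use, DM heart 1 stood at 6.86-fold that median. Both sums still hold ckma, at 1073 CPM in DM heart 3, and acta1a, at 499 CPM there. For the 6 fast myosin genes DM heart 1 stood at 15.9-fold the median of the other hearts. DM heart 3, at 44.5 CPM for these genes, lay below sibling heart 1 (275 CPM) and both WT hearts (123 and 132 CPM). DM heart 1 was the highest of the 6 hearts in 30 of the 38 genes, and in 28 of the 35 that passed the low-count filter, a position it held in 28.8% of all genes tested. In 23 of these 35 it exceeded 4-fold the median of the other hearts, against 7.02% of all genes.

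**Figure D3:**
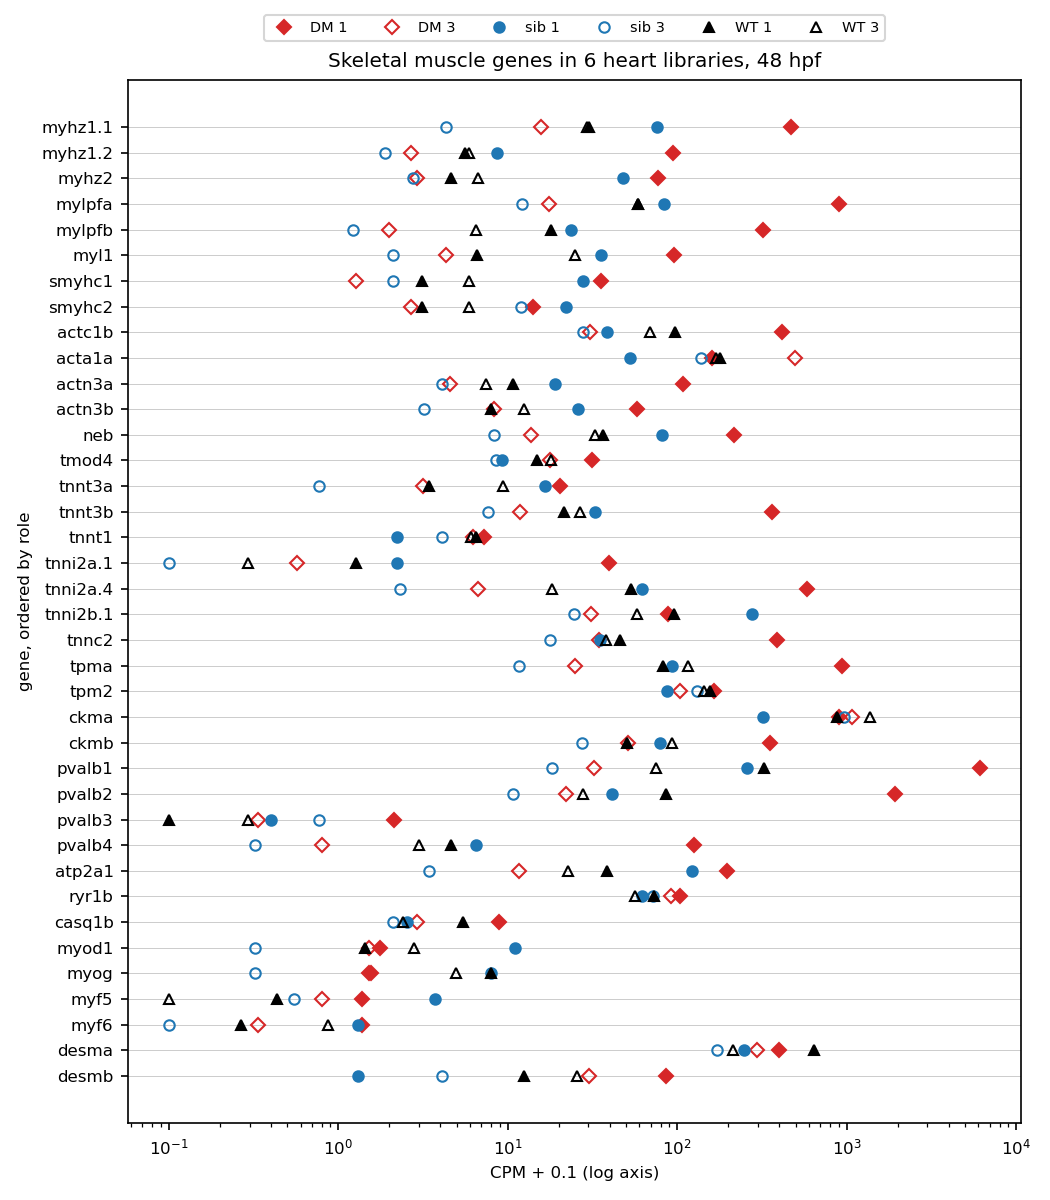
CPM plus 0.1 on a log axis of each of the 38 muscle genes in the 6 hearts at 48 hpf, with DM, sibling and WT libraries as diamonds, circles and triangles, filled for number 1 and open for number 3. DM heart 1 lies above the other hearts for 30 genes, by the widest margins for pvalb2, pvalb4, pvalb1 and tnni2a.1, and not for acta1a, ckma, desma, tnni2b.1, smyhc2, myod1, myog and myf5.

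Against the median of the other hearts, the excess in DM heart 1 was greatest for the troponin I copy tnni2a.1 (84.3-fold) and the parvalbumins pvalb1 and pvalb2. For tnni2a.1 that median was 2 counts (0.471 CPM), under the limit of 3 counts, so its ratio and its rank are uncertain. Parvalbumin pvalb1 (ENSDARG00000037789) had 6162 and 32.3 CPM in DM hearts 1 and 3, 260.2 and 18.1 CPM in sibling hearts, and 325 and 75.1 CPM in WT hearts. That is 82.0-fold the median of the other hearts and 33.6-fold the mean of the 25 hpf sibling embryos. The gene pvalb2 had 1945 and 22.1 CPM in DM hearts, 41.0 and 10.7 CPM in sibling hearts, and 85.9 and 27.9 CPM in WT hearts, and pvalb4 stood at 43.1-fold the median of the other hearts. Without the 4 parvalbumins the list summed to 7666 CPM in DM heart 1, which is 3.19-fold the median of the other hearts and below each of the 6 embryo libraries (9675 to 15285 CPM). With them, its 15900.5 CPM lay above all 6.

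The fast contractile genes differed in how far DM heart 1 stood above the others. The fast light chain mylpfa had 908 and 17.4 CPM in DM hearts, 83.6 and 12.1 CPM in sibling hearts, and 58.5 and 59.0 CPM in WT hearts. The fast troponin I gene tnni2a.4 had 585 and 6.59 CPM in DM hearts, 62.0 and 2.23 CPM in sibling hearts, and 53.2 and 18.2 CPM in WT hearts. Together the 6 fast myosin genes took 1963 and 44.5 CPM in DM hearts, 275 and 23.9 CPM in sibling hearts, and 123 and 132 CPM in WT hearts. In other fast genes sibling heart 1 came close or was higher. The fast heavy chain myhz2 had 77.2 and 2.83 CPM in DM hearts, 47.7 and 2.68 CPM in sibling hearts, and 4.53 and 6.60 CPM in WT hearts, and the fast troponin T gene tnnt3a had 20.2 and 3.06 CPM in DM hearts, 16.4 and 0.670 CPM in sibling hearts, and 3.35 and 9.32 CPM in WT hearts. The troponin I gene tnni2b.1 had 88.1 and 31.1 CPM in DM hearts, 277 and 24.6 CPM in sibling hearts, and 95.4 and 58.2 CPM in WT hearts, with sibling heart 1 the highest. The copy tnni2a.1, barely counted in embryos, had 216 and 2 counts in DM hearts, 7 and 0 in sibling hearts, and 7 and 1 in WT hearts.

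Slow myosin was high in both DM heart 1 and sibling heart 1, and the sum of the myogenic factors was highest in sibling heart 1. The slow heavy chain smyhc1 had 35.7 and 1.18 CPM in DM hearts, 27.7 and 2.01 CPM in sibling hearts, and 3.02 and 5.82 CPM in WT hearts. In DM heart 1 smyhc1 was 11.8-fold the median of the other hearts, near the 11.2-fold of the fast troponin C gene tnnc2, but 1.29-fold sibling heart 1. Its level in DM heart 1 was 0.0299 of the mean of the sibling embryos, where smyhc1 is abundant. The 4 myogenic factors summed to 5.70 and 3.77 CPM in DM hearts, 23.7 and 0.893 CPM in sibling hearts, and 9.73 and 8.34 CPM in WT hearts, with sibling heart 1 the highest. The early regulator myod1 had 1.65 and 1.41 CPM in DM hearts, 10.9 and 0.223 CPM in sibling hearts, and 1.34 and 2.72 CPM in WT hearts. These genes had few counts, with 36 for myod1 and 12 for myf5 in sibling heart 1. For myog sibling heart 1 (7.90 CPM) was level with WT heart 1 (7.88 CPM). For myf6 DM heart 1 was the highest, at 1.29 CPM against 1.22 CPM in sibling heart 1. Leaving DM heart 1 aside, sibling heart 1 was the highest of the other 5 hearts in 22 of 38 genes, and sibling heart 3 was the lowest of all 6 in 28 of 38. The share of all genes in these positions was not counted, so nothing is read from these counts about muscle genes.

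Markers of lens were also high in DM heart 1 and in sibling heart 1, as were col2a1a and, at lower levels, col9a1a of the cartilage and notochord list. The sum of the 38 muscle genes was not high in sibling heart 1, where ckma was at its lowest (322 CPM). The fast myosins there, at 275 CPM, were second to DM heart 1. Slow myosins summed to 49.6 CPM in both of these hearts. The 11 lens markers summed to 1549.6 and 25.2 CPM in DM hearts, 4219 and 22.99 CPM in sibling hearts, and 49.3 and 64.8 CPM in WT hearts. Of these cryba4 had 561 CPM in DM heart 1 and 878 CPM in sibling heart 1, and mipb had 50.6 CPM in DM heart 1 and 920 CPM in sibling heart 1. The 4 cartilage and notochord markers, nearly all from col2a1a, summed to 831 and 60.5 CPM in DM hearts, 568 and 23.2 CPM in sibling hearts, and 104 and 97.6 CPM in WT hearts. In both sums the 2 highest libraries were DM heart 1 and sibling heart 1, and the other 4 hearts were lower. The single genes of the cartilage and notochord list did not all follow the sum. While col2a1a had 767 and 553 CPM in DM heart 1 and sibling heart 1, col8a1a had at most 0.608 CPM in any heart. The gene col9a1a followed the sum, at 48.5 and 2.35 CPM in DM hearts, 13.1 and 2.01 CPM in sibling hearts, and 6.20 and 3.11 CPM in WT hearts. The gene matn1 had 16.0 CPM in DM heart 1, but 0.912 CPM in sibling heart 1 against 2.68 CPM in WT heart 1. Neural markers (8 genes) summed to 2050.3 and 1516 CPM in DM hearts, 2319 and 531 CPM in sibling hearts, and 294 and 3097 CPM in WT hearts, and skin markers (8 genes) to 1868 and 2617 CPM in DM hearts, 1871 and 1404 CPM in sibling hearts, and 189 and 492 CPM in WT hearts. Cardiomyocyte markers (10 genes) were present in every heart, at 40203 and 52552 CPM in DM hearts, 14944 and 34928 CPM in sibling hearts, and 50228 and 32727 CPM in WT hearts, with sibling heart 1 the lowest. Red blood cell markers (6 genes) summed to 1196 and 1275 CPM in DM hearts, 709.9 and 799 CPM in sibling hearts, and 2041 and 1918 CPM in WT hearts. The part of other tissues in the muscle values was not tested.

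**Figure D4:**
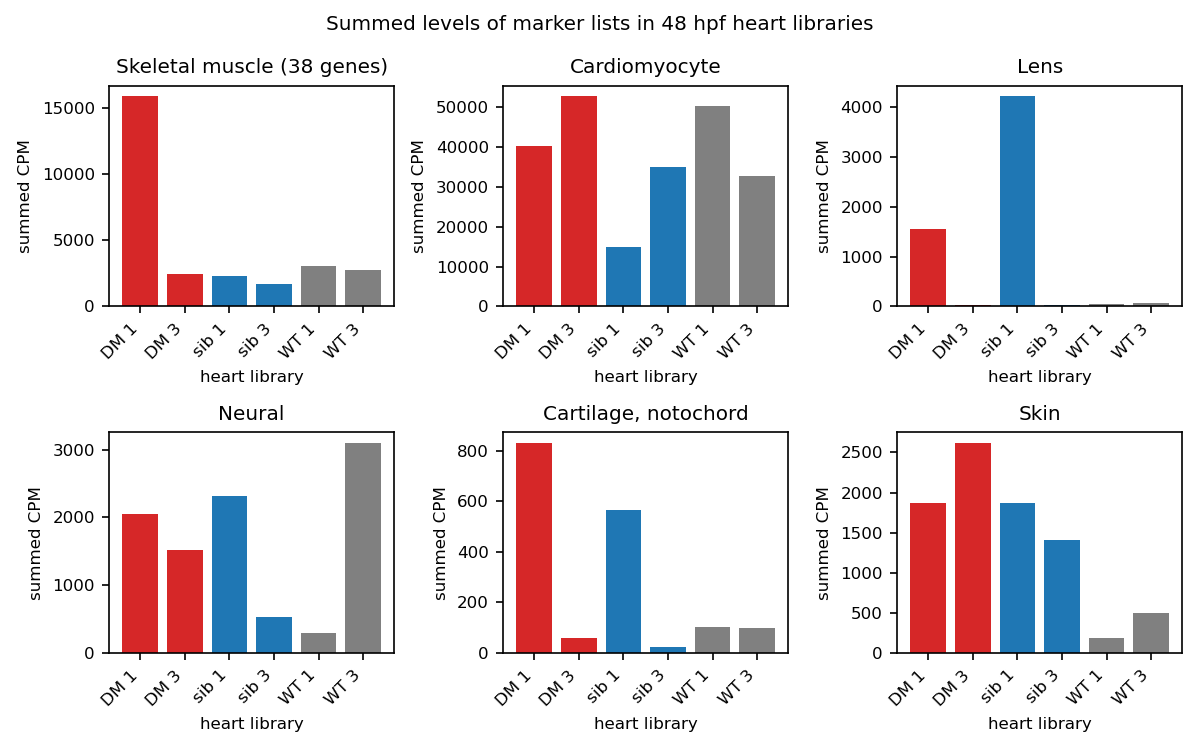
Bars of the summed CPM, on linear axes from 0, of the 38 muscle genes and of marker lists for cardiomyocytes, lens, neural tissue, cartilage and notochord, and skin in the 6 hearts at 48 hpf, ordered DM, sibling, WT. The muscle genes peak in DM heart 1 at 15900.5 CPM, and the cardiomyocyte markers are lowest in sibling heart 1. The lens sum and the cartilage and notochord sum, the latter nearly all col2a1a, are high in DM heart 1 and sibling heart 1.

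A few members of the list were at levels in every heart that did not hang on DM heart 1. Creatine kinase ckma had 904 and 1073 CPM in DM hearts, 322 and 969.6 CPM in sibling hearts, and 876 and 1383 CPM in WT hearts. The actin acta1a had 161 and 499 CPM in DM hearts, 52.9 and 138 CPM in sibling hearts, and 180.3 and 169 CPM in WT hearts, with DM heart 3 the highest. The ryanodine receptor ryr1b had 104 and 92.1 CPM in DM hearts, 62.0 and 71.9 CPM in sibling hearts, and 72.9 and 56.3 CPM in WT hearts. Desmin desma had 401 and 295 CPM in DM hearts, 248 and 171 CPM in sibling hearts, and 646 and 212 CPM in WT hearts. In the median of the hearts other than DM heart 1, ckma stood at 330.2% of the mean of the sibling embryos, desma at 197%, ryr1b at 151% and acta1a at 145%, whereas mylpfa stood at 2.83% and smyhc1 at 0.253%. The slow troponin T gene tnnt1, at 2.13 to 7.17 CPM in the hearts, stood at 489%. Beta-tropomyosin tpm2, at 87.6 to 165 CPM in the hearts, stood at 37.8%. The gene desmb, barely counted in embryos, is given below. Stage, tissue and library preparation all differ between these hearts and embryos, since heart RNA was amplified before library construction.

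For the comparison of DM with sibling hearts, edgeR called 0 of 16998 genes (0%) and 0 of 35 muscle genes, with 568 genes and 7 muscle genes at an unadjusted p under 0.05. The median log2 fold change was 1.44 across the muscle genes, with 31 of 35 positive, and 0.04 across all genes. Without DM heart 1 the median was -1.27 with 10 of 35 positive, and without sibling heart 1 it was 3.57 with 33 of 36 positive. Without either of these libraries it was 0.80 with 31 of 34 positive, from 1 heart against 1, where a lone heart is assumed to vary like the groups with 2. The sign of the muscle genes as a list therefore turned with the library left out.

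No gene was called by edgeR in the comparisons with WT hearts either. For DM against WT hearts edgeR called 0 genes (0%) and 0 of 35 muscle genes, with 1254 genes and 0 muscle genes at an unadjusted p under 0.05. The muscle median was 1.38 with 28 of 35 positive, against 0.02 across all genes, and it was -1.26 with 4 of 35 positive without DM heart 1 and 0.33 with 26 of 35 positive under the replicate block. For sibling against WT hearts edgeR called 0 genes (0%) and 0 of 35 muscle genes, with 833 genes and 3 muscle genes at an unadjusted p under 0.05, and the muscle median was -0.54 with 12 of 35 positive. It was -1.90 without sibling heart 1, 0.22 without sibling heart 3, and -1.17 with 4 of 35 positive under the replicate block. The 3 heart comparisons share libraries and are not independent of each other.

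**Figure D5:**
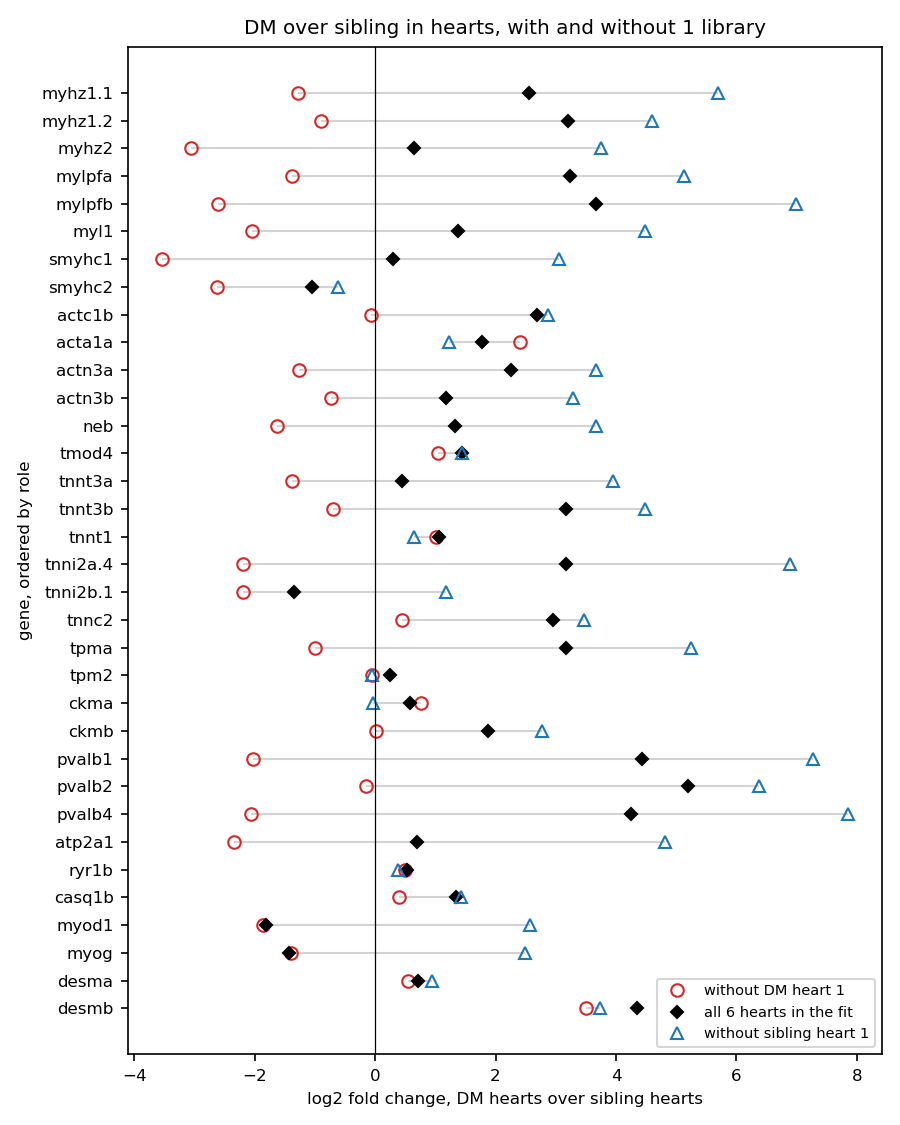
Log2 fold change of DM over sibling hearts from edgeR for 34 muscle genes tested in each fit, with all 6 hearts, without DM heart 1 and without sibling heart 1. Most genes lie right of 0 with all hearts and left of 0 without DM heart 1, and the medians over the tested genes are 1.44 and -1.27.

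The muscle gene with the strongest evidence in hearts was desmb (ENSDARG00000005221, chromosome 6, 13742204 to 13762290), the paralog of desma, which had 4 counts or fewer in each embryo library at 25 hpf. It had 85.7 and 30.1 CPM in DM hearts (466 and 128 counts), 1.22 and 4.02 CPM in sibling hearts (4 and 18 counts), and 12.4 and 25.6 CPM in WT hearts (74 and 132 counts). The sibling hearts were the 2 lowest, and both DM hearts were above both sibling and both WT hearts. The log2 fold change of DM over sibling hearts was 4.35 (SE 0.80), with an adjusted p of 0.83 in edgeR and 4.97e-05 in DESeq2, which called 66 of 13664 genes (0.483%), 18 of them higher in DM (0.132%), and no other muscle gene. Without DM heart 1 it was 3.50, with a DESeq2 adjusted p of 0.117. The log2 fold change of sibling over WT hearts was -3.06 (SE 0.77), with an adjusted p of 0.913 in edgeR and 0.0375 in DESeq2, which called 50 genes (0.305%), 13 of them lower in siblings (0.0792%), and the DESeq2 adjusted p without DM heart 1 was 0.0941. DM over WT hearts had 1.298 (SE 0.68, adjusted p = 0.702 in edgeR), and DESeq2 called 120 genes (0.823%) and 0 muscle genes there. These values share the sibling hearts, so the low sibling levels of desmb enter both calls. In the authors' deposited table the log2 fold change of desmb in DM over sibling hearts was 2.45 with an adjusted p of 0.00017, and it was the only muscle gene among the 103 genes under 0.05 there. The authors' deposited tables for DM against WT and for sibling against WT hearts had 289 and 24 genes under 0.05, and 0 muscle genes.

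The difference between the DM effect in hearts and the DM effect in embryos was tested as an interaction over 10 libraries, hearts minus embryos. It was called for 9 of 19689 genes (0.0457%) and 0 of 38 muscle genes by edgeR, with 1161 genes and 9 muscle genes at an unadjusted p under 0.05, and for 89 genes (0.497%) and 0 muscle genes by DESeq2. With the replicate number as a block it was called for 48 genes (0.244%), 10 of them positive (0.0508%), and 1 muscle gene, the actin acta1a, at 2.17 on the log2 scale (SE 0.29, adjusted p = 0.0386). In acta1a the DM effect was 1.78 in hearts without the block and -0.49 in embryos with it. With 2 libraries a group the hearts cannot show whether their numbers pair, and without the block the same difference was 2.33 (SE 1.00, adjusted p = 0.83). Without DM heart 1 it was 2.98 (adjusted p = 0.642). Stage, tissue and RNA amplification differ together between the 2 sets of libraries and cannot be told apart.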

How the data were processed

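Per the labels' protocols, RNA came from whole embryos at 25 hpf and from dissected hearts at 48 hpf, and 1 ng of heart RNA was amplified (Ovation RNA-Seq System V2) before libraries were made with the TruSeq RNA kit v2. The authors deposited raw counts per gene for each library, which underlie every level and test here, while 18 columns of normalised values were left aside. Strand handling in counting is not given in the sources used here. Per the submitters' processing notes the tools were STAR 2.3.0e and HTSeq 0.6.0 and the build was GRCz10, with no role given for each, and coordinates are those of the deposited tables. The authors' log2 fold changes and p-values (raw and adjusted) stand beside the counts per the file headers, with no tool named, and are quoted only where said. The authors' heart tables with WT put WT on top of the ratio.

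CPM was each count over the library's total. After filterByExpr and TMM scaling, edgeR 4.0.16 (limma 3.58.1, R 4.3.3) gave quasi-likelihood tests in a fit of the 6 embryo libraries, a fit of the 6 hearts with 1 spread for the 3 groups, and a fit of 10 DM and sibling libraries for the difference between tissues. Adjusted p-values are Benjamini-Hochberg over all genes of a fit, with calls at 0.05, and an SE is the absolute log2 fold change over the square root of the F statistic. Pair ratios add 0.1 to each CPM. DESeq2 1.42.0 (Wald test), other scaling and filters, single libraries left out, embryo pairs left out and removal of a lowess trend with gene span (span 0.3) were the alternatives. Fits without DM heart 1 in DESeq2 or without both DM and sibling hearts numbered 1 were added after the data were seen. So were the test of the difference between tissues without DM heart 1 and the sums without parvalbumins. The tests were also run on simulated data. In embryos the deviations of libraries 1, 2 and 3 from their group means correlated between genotypes across genes (r = 0.867, 0.706 and 0.243, each over the minimum of 0.1), so the number was used as a block, although the labels state no pairing and sibling embryo 2 with DM embryo 3 had r = 0.558. The 38 genes, the further gene lists and the markers were chosen with earlier results of these data known. Named genes are all 38, the 3 most abundant of each further list in embryos and the called ones where a list had 3 or fewer. Of the lens list and of the cartilage and notochord list the 2 most abundant markers in hearts are named. The other marker lists are given as sums and counts only. Further genes of the lists named with values, such as the pax genes, sox6, mespaa, matn1 and col8a1a, were chosen after their values were seen. Of the further lists, 28 of 31 sarcomere, 16 of 16 excitation-contraction, 13 of 15 junction and fusion, 12 of 12 chaperone and kelch, 14 of 14 energy and 24 of 24 regulator genes were found.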

Additional observations from a re-analysis of the deposited data

Results flagged for a closer look

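The actin gene acta1a drew attention because the DM over sibling effect differed between hearts and embryos by a test of that difference. With the replicate number as a block the difference was 2.1667 on the log2 scale (edgeR, SE 0.29, adjusted p = 0.0386, 10 libraries), and without the block it was 2.33 with an adjusted p of 0.83. The level of acta1a was 161 and 499 CPM in DM hearts, 52.9 and 138 CPM in sibling hearts, and 180.3 and 169 CPM in WT hearts. Sibling heart 1, the lowest for acta1a, was also the lowest for the summed cardiomyocyte markers (14944 CPM). In embryos acta1a was lower in DM than in siblings in 3 of 3 pairs. The difference was 2.98 without DM heart 1, the library with the most body muscle transcripts, with an adjusted p of 0.642. Groups of 2 and 3 libraries were too small for single libraries to be tested as outliers.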

How the results depend on the processing

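In embryos the count of genes called by edgeR without a block was 0, and 0 to 2 when single libraries were left out, with 0 muscle genes each time. It was 39 with DESeq2 (0 muscle genes). The replicate block moved it to 2453 (7 muscle genes), the block with the span trend removed to 2324 (9) and DESeq2 with the block to 1294 (8). The block with pair 1, 2 or 3 left out gave 536 (1), 1227 (1) and 3119 (11), and without pair 3 the parvalbumin gene pvalb4 was called at -0.39, against 0.02 without a block and with all libraries. Between these fits genes that neither fit called changed sign, 13 of 36 muscle genes without sibling embryo 1 at most. In hearts the edgeR counts of 0 became 3 without a filter for DM against sibling and for DM against WT. DESeq2 gave 66, 120 and 50 genes for DM against sibling, DM against WT and sibling against WT, with 1, 0 and 1 muscle genes (desmb), and 26, 31 and 11 genes without DM heart 1, with 0 muscle genes each. The replicate block gave 0 genes and 0 muscle genes in each heart comparison, as did a crossed pairing of sibling and WT hearts, added after the data were seen. Muscle genes whose sign changed without DM heart 1 numbered 20 for DM against sibling and 24 for DM against WT. The difference of effects between hearts and embryos was called for 9 genes, or 48 with the replicate block (1 muscle gene), 17 with DESeq2 size factors, 89 with DESeq2, 14 without a filter and 16 without DM heart 1. Summed muscle CPM without mylpfa, the most abundant gene, was 9491 in DM embryo 3 and 9531 in sibling embryo 2. In WT hearts 1 and 3 it was 3645 and 3086 with TMM scaling and 2326 and 2424 without tpma, desma and desmb, and in WT heart 1 it was 2653 without parvalbumins. Depth limits the genes with few counts, namely tnni2a.1, desmb, pvalb3, tnnt1, myf5 and myf6.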
